A study of Mus musculus with 7 samples.

Results

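The glycolysis and hypoxia response genes described here are 37 genes taken by name from a table of 23337 gene symbols: the enzymes of glycolysis, the genes that carry and convert glucose and lactate, the kinases that hold back pyruvate dehydrogenase, and genes of the hypoxia-inducible factor (HIF) response. The rule that chose them uses gene names and roles and no measured value, but it was set with earlier results of these data known. All 37 had a row in the table (Pkm under its older symbol Pkm2), and all 37 had enough counts to be tested, among 14691 tested genes in all. The study sequenced poly(A) RNA of the left ventricle, taken from mouse embryos at embryonic day 12.5, to find transcripts that depend on Tbx5. Every embryo carried Gt(ROSA)26Sortm1(cre/ERT2)Tyj, a tamoxifen-dependent Cre recombinase at the Rosa26 locus, and came from a mother injected with tamoxifen at E11.5, so both groups share the recombinase and the drug. The 5 controls were Tbx5+/+, and the 2 embryos labelled mutant were Tbx5flox/flox. Rosa26 is active in nearly all cell types, so this locus does not limit the recombinase to heart muscle. The labels name no litter, and the p-values measure only the spread between these libraries.

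Glycolysis breaks glucose down to pyruvate in the cytoplasm and yields ATP without oxygen. Lactate dehydrogenase turns pyruvate into lactate, which leaves the cell through monocarboxylate transporters, while pyruvate dehydrogenase feeds pyruvate to the mitochondria unless its kinases block it. When oxygen is scarce, prolyl hydroxylases no longer mark HIF-1α for destruction, and the stabilised factor raises transcription of glucose transporters, most glycolytic enzymes and genes such as Vegfa and Bnip3. The embryonic heart develops in low oxygen and relies largely on glucose and lactate, and it turns to fatty acids after birth. TBX5 is a T-box transcription factor that is required for heart formation.

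Library totals were 20385656 to 24440806 counts in the controls, 20268208 in mutant replicate 1 and 22680280 in mutant replicate 2. Tbx5 itself was not lower in those libraries (64.2 to 98.3 CPM in the controls against 93.9 and 114 CPM, a counts-per-million value on TMM-scaled library totals), and since the count covers the whole gene it does not check the deletion. They are therefore called the libraries labelled mutant, mutant 1 and mutant 2 for short. The summed level of 12 cardiomyocyte markers was 42032 to 48053 CPM in the controls and 48184 and 51731 CPM in mutant 1 and 2. Of these markers, 5 were above every control in both, 6 overlapped, and Myl2 was below, at 7433 to 10784 CPM against 6263 and 5726 CPM. Of 12 cushion mesenchyme and fibroblast markers, 7 passed the test as lower, and the sum of all 12 was 2982 to 4943 CPM in the controls against 1887 and 2217 CPM. Of the 12, 11 were below every control in both libraries labelled mutant. Vcan was not, at 199 to 280 CPM against 209.5 and 555 CPM. Of 10 macrophage markers, 3 passed as lower, with a sum of 179.8 to 240.0 CPM against 156 and 109 CPM. Of 8 epicardial markers, 1 passed as lower (355 to 538 CPM against 392 and 277 CPM), and no endothelial or erythroid marker passed (2 of 12 and 0 of 10 at an unadjusted p under 0.05). Of the cardiomyocyte markers, 1 of 12 passed as higher, and of 9 atrial markers 5 passed as lower. Over all tested genes, 0.463% passed as higher and 0.899% as lower. The atrial marker Sln had 3.46 to 13.9 CPM in the controls against 0.842 and 0.219 CPM, and Myl7 had 694 to 1512 CPM against 478 and 418 CPM. The other 4 atrial markers overlapped between groups, and the atrial sum was 4491 to 7152 CPM against 5069 and 4883 CPM. The erythroid sum was 5429 to 11370.0 CPM, highest in control 5, against 6708 and 6969 CPM. Hba-a1 and Hba-a2 have identical counts, so 1 measurement enters the erythroid sum, the count of 10 and the haemoglobin term used below more than once. No marker of these lists was at 0 in any library. Xist, used below to read sex, was 0.689 and 1.09 CPM in controls 1 and 3, which were read as male. It was 311 to 477 CPM in controls 2, 4 and 5 and 380 and 509 CPM in mutant 1 and 2, all read as female. The group labelled mutant thus held no library read as male. In bulk tissue, fewer cells of a type and less RNA per cell cannot be told apart.

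Among the 37 genes, Ndrg1 passed the test as lower in the libraries labelled mutant, and no gene passed as higher. The test was edgeR's quasi-likelihood test with Benjamini-Hochberg adjustment over all tested genes, and a gene is said to have passed when its adjusted p was at most 0.05. That is 1 of 37 genes called, where 1.36% of all tested genes were called in either direction, 0.463% higher and 0.899% lower. For 9 of the 37 genes, or 24.3%, both mutant libraries fell outside the control range, against 20.2% of all tested genes, a share near that background. An unadjusted p under 0.05 was reached by 5 genes with a positive and 4 with a negative fold change, again 24.3%, against 17.6% of all tested genes. DESeq2 called 5 of the 37 higher and 2 lower, and limma-voom called 0 in either direction. Over all genes DESeq2 called 354 higher and 435 lower, and limma-voom 49 and 65, where edgeR called 68 and 132. The DESeq2 calls are therefore not to be read against the edgeR share. The median log2 fold change of the 37 genes was 0.046, and that of all tested genes was -0.0080. Of the 14691 tested genes, 7139 had a positive and 7552 a negative value. The glycolytic enzymes and the HIF target genes had medians of opposite sign: 0.064 for the 16 enzymes, 13 of them with a positive value (Gapdh and Pkm turned negative under upper quartile scaling), and -0.28 for the 7 HIF targets, 5 of them with a negative value.

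**Figure D1:**
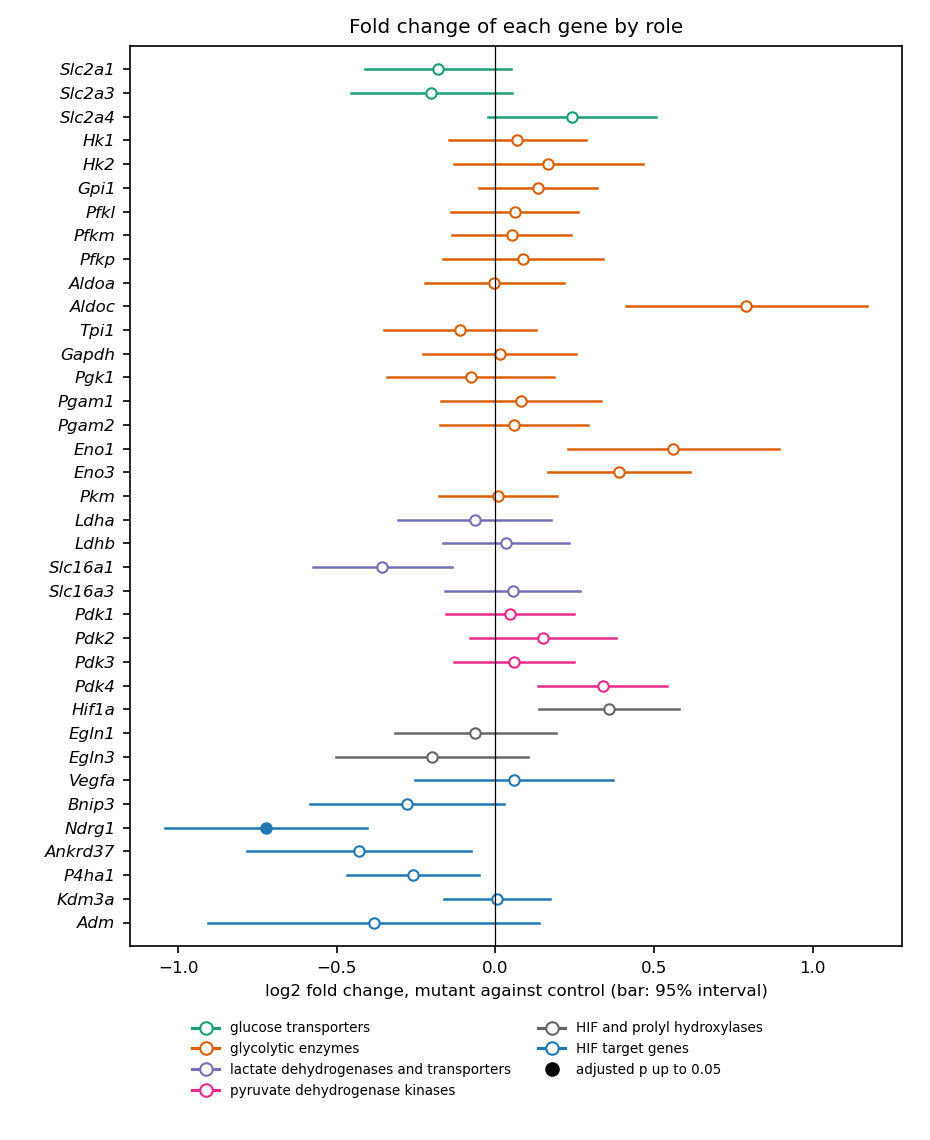
Each point is the log2 fold change of 1 gene, libraries labelled mutant against controls, with its 95% interval as a bar, ordered and coloured by role. Ndrg1 is the only filled point, the only one of the 37 genes with an adjusted p of at most 0.05. The intervals of 28 genes span 0.

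Of the 3 glucose transporters, none passed the test. Slc2a1 encodes GLUT1, the transporter of basal glucose uptake and the main one of the embryonic heart, and it was the most abundant per length, at 73.4 ± 2.31 RPKM (CPM per kilobase of exon, SD, n = 5) in the controls. Slc2a1 had 262, 245, 266, 259 and 254 CPM in controls 1 to 5 and 198 and 256 CPM in mutant 1 and 2. Mutant 1 was below every control and mutant 2 was within their range (log2 fold change -0.18, SE 0.10, adjusted p = 0.393). The log2 fold change of Slc2a1 was -0.0079 without mutant 1 and -0.37 without mutant 2. Slc2a3, which encodes the high-affinity GLUT3, had 43.6, 33.8, 35.5, 35.5 and 35.8 CPM in the controls and 29.98 and 34.04 CPM in the libraries labelled mutant, so only mutant 1 was below the controls (log2 fold change -0.20, SE 0.11, adjusted p = 0.390). Slc2a4 encodes GLUT4, the insulin-responsive transporter of mature muscle. It had 36.98, 32.5, 34.8, 33.8 and 33.04 CPM in the controls and 33.9 and 46.9 CPM in the libraries labelled mutant, where mutant 2 was the highest of all 7 libraries and mutant 1 was within the control range (log2 fold change 0.24, SE 0.12, adjusted p = 0.333).

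The 16 glycolytic enzyme genes together held 16002 to 17622 CPM in the controls and 18739 and 15862 CPM in mutant 1 and 2. Mutant 1 had the highest sum of the 7 libraries and mutant 2 the lowest. Over the single genes, mutant 1 was the highest library for 8 of 16 and mutant 2 the lowest for 7 of 16. No enzyme gene was called, and 3 of 16 had an unadjusted p under 0.05, beside 17.6% of all tested genes. Aldoc, Eno1 and Eno3 were above every control in both mutant libraries, and the other 13 overlapped with the controls. Of all tested genes, 9.73% were above every control in this way.

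Aldoc encodes aldolase C, the brain-type isoform of the enzyme that splits fructose bisphosphate, and it was the enzyme gene with the largest fold change. It had 27.1, 21.8, 25.98, 26.9 and 18.6 CPM in the controls and 49.7 and 33.6 CPM in the libraries labelled mutant, so the lower mutant library was still above the highest control. The means were 24.1 ± 3.75 CPM (SD, n = 5) and 41.6 ± 11.3 CPM (SD, n = 2), and the adjusted p of edgeR's quasi-likelihood test lay just above the threshold (log2 fold change 0.79, SE 0.17, adjusted p = 0.0540, 95% interval 0.41 to 1.17). Adjusted p was 0.0470 without control 5, 0.00159 in DESeq2 and 0.0383 with the haemoglobin level as a covariate. It was 0.0817 in limma-voom and 0.0909 with a term for sex read from Xist. Its fold change without mutant 1 was 0.49 on the log2 scale (adjusted p = 0.177). Aldoc lies at chr11:78323073-78327781 (RefSeq, mm10), plus strand, and none of its 50-base stretches occurs in the transcript of another gene (GENCODE M21).

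Enolase makes phosphoenolpyruvate, and both of its member genes were above the control range. Eno1, the widely expressed isoform, had 894, 710.2, 833, 933 and 656 CPM in the controls and 1353 and 1022 CPM in the libraries labelled mutant (log2 fold change 0.56, SE 0.15, adjusted p = 0.0969). Without mutant 1 the log2 fold change was 0.35. Both mutant libraries were above every control, with mutant 1 the higher. Of the 50-base stretches of Eno1, 49.5% occur exactly in transcripts of other genes and 48.4% in the copy Eno1b, so single-end reads of 50 bases from them cannot be assigned by sequence. Eno3, the muscle isoform, shares none, and had 425, 409, 493, 389 and 446 CPM in the controls and 554 and 579.6 CPM in the libraries labelled mutant (log2 fold change 0.39, SE 0.10, adjusted p = 0.0877). Here mutant 2 was the higher. For Eno1 the adjusted p was 0.0118 in DESeq2, 0.121 in limma-voom and 0.187 without mutant 2. For Eno3 these were 0.00741, 0.102 and 0.429. Per length, the enolase pair summed to 488 to 579.9 RPKM in the controls and 796 and 697 RPKM in mutant 1 and 2. Of that sum, the control share of Eno1 was 46.2% to 58.4%, and its share was 58.8% and 50.8% in mutant 1 and 2.

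**Figure D2:**
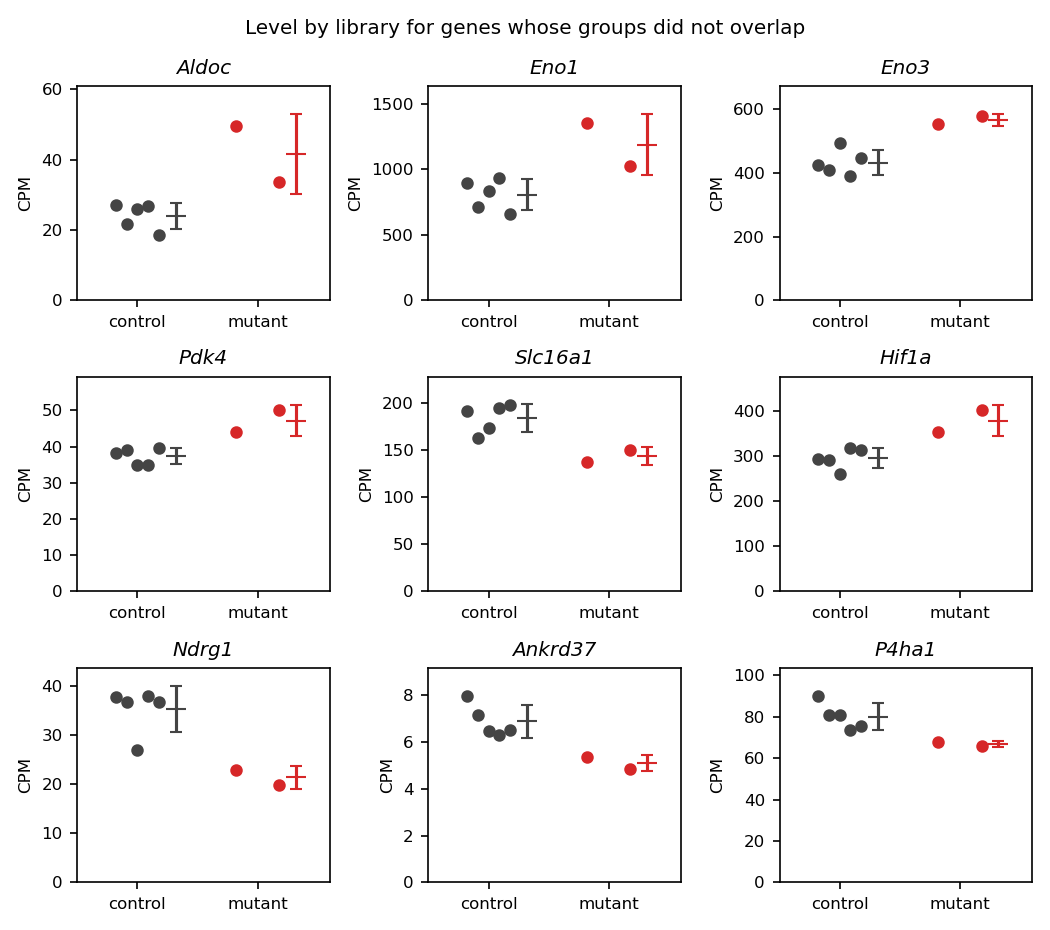
Points are libraries and show the level in CPM of the 9 genes whose libraries labelled mutant lay wholly outside the control range; crosses with bars are the group mean and SD (5 controls, 2 mutant). Ndrg1 passed the test and the other 8 did not. In Aldoc and Eno1 mutant 1 is the higher of the libraries labelled mutant, and in Eno3, Pdk4 and Hif1a mutant 2 is.

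The steps that commit glucose to the pathway showed small differences. Hexokinase phosphorylates glucose on entry. Hk1, the more abundant form per length, had 363 to 446 CPM in the controls and 404 and 417 CPM in the libraries labelled mutant, and Hk2, the inducible muscle form, had 82.9 to 127 CPM against 114 and 125 CPM. Fold changes were 0.069 for Hk1 and 0.17 for Hk2 on the log2 scale. Gpi1, the isomerase of the next step, had 1090.1 to 1172 CPM against 1285 and 1171 CPM, with a log2 fold change of 0.13. All 3 phosphofructokinase genes, which encode the chief control point of glycolysis, overlapped between groups: Pfkl (liver type) had a log2 fold change of 0.060, Pfkm (muscle type) of 0.051 and Pfkp (platelet type) of 0.087. For Pfkl the mutant libraries, at 540.0 and 454 CPM, were respectively above and below all 5 controls (463 to 492 CPM).

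The later steps took most of the pathway's counts. In all, 6 enzyme genes, Gpi1 among them, exceeded 1000 CPM on average in the controls. Aldoa, the muscle aldolase, had 2487 to 2741 CPM in the controls and 2843 and 2334 CPM in the libraries labelled mutant. Gapdh, often used as a reference gene, had 2235 to 2606 CPM against 2735 and 2181 CPM. Tpi1, the triose phosphate isomerase, had 1740.1 to 2064 CPM against 1913 and 1594 CPM, and Pgk1, which makes the first ATP of the pathway, had 1919 to 2349 CPM against 2271 and 1802 CPM. Pkm, the pyruvate kinase of muscle and embryo, had 2463 to 2639 CPM against 2657 and 2422 CPM. Mutant 2 was the lowest of the 7 libraries for all 5 of these genes, and mutant 1 was above mutant 2 in each. Their log2 fold changes ran from -0.11 (Tpi1) to 0.014 (Gapdh), and none passed. Values this near 0 turned sign with scaling, for Aldoa under DESeq2 size factors and for Gapdh and Pkm under upper quartile factors. The phosphoglycerate mutases overlapped between groups too: Pgam1 had 785 to 868 CPM against 987 and 732 CPM and the muscle form Pgam2 297 to 379.9 CPM against 347 and 333 CPM. Copies with near-identical sequence limit 3 of these counts, since 58.4% of the 50-base stretches of Gapdh, 67.96% of Pgk1 and 41.5% of Pgam1 also occur in other genes' transcripts.

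**Figure D3:**
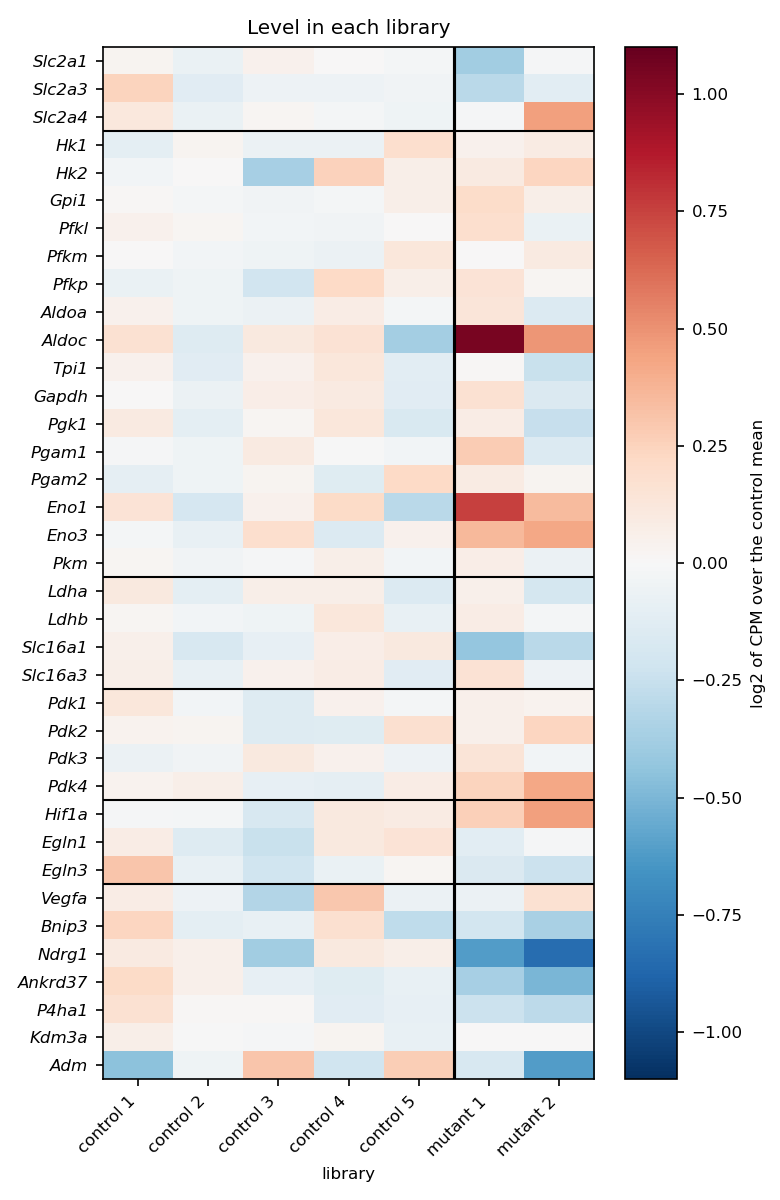
Rows are the 37 genes in the order of their roles and columns are the 7 libraries; colour is log2 of CPM over the control mean. Horizontal lines part the roles and the vertical line parts the groups. Mutant 1 is the darkest red for Aldoc and Eno1, and mutant 2 the darkest blue for Ndrg1.

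Of the 4 lactate genes, none passed. Ldha, the lactate dehydrogenase subunit that favours lactate formation, had 2318 to 2774 CPM in the controls and 2675 and 2253 CPM in the libraries labelled mutant. Ldhb, the heart-type subunit, had 647 to 749.9 CPM against 728 and 678 CPM. Per length, Ldha made up 68.00% to 70.9% of the lactate dehydrogenase transcripts in the controls and 68.7% and 66.6% in mutant 1 and 2. Slc16a1 encodes MCT1, which takes up or releases lactate, and it was the lactate gene with the largest difference. It had 192, 163, 173, 194 and 198 CPM in the controls and 137 and 150.1 CPM in the libraries labelled mutant, both below every control (log2 fold change -0.36, SE 0.10, adjusted p = 0.105). For Slc16a1 DESeq2 gave an adjusted p of 0.0293 and limma-voom 0.119. Slc16a3, which encodes the export carrier MCT4 and is itself a HIF target, had 212 to 245 CPM against 258 and 222 CPM, with a log2 fold change of 0.054.

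The 4 pyruvate dehydrogenase kinase genes all had positive log2 fold changes, beside 7139 of 14691 tested genes, and none of the 4 passed. Pdk4 encodes the kinase that rises with fasting and fatty acid use, and its libraries did not overlap between groups, at 38.3, 38.97, 35.02, 34.9 and 39.5 CPM in the controls and 44.2 and 50.2 CPM in the libraries labelled mutant (log2 fold change 0.34, SE 0.092, adjusted p = 0.0999). For Pdk4 DESeq2 gave an adjusted p of 0.0346 and limma-voom 0.118. Pdk1, the kinase raised by HIF-1, had 297 to 358 CPM against 341 and 336 CPM. Pdk2 had 70.8 to 88.5 CPM against 81.1 and 92.4 CPM, and Pdk3 124 to 140.2 CPM against 144 and 128 CPM. Log2 fold changes were 0.046 for Pdk1, 0.15 for Pdk2 and 0.058 for Pdk3.

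Hif1a, the oxygen-sensitive subunit of HIF-1, had 294, 292, 261, 319 and 314 CPM in the controls and 355 and 404 CPM in the libraries labelled mutant. Both were above every control, and the difference did not pass (log2 fold change 0.36, SE 0.10, adjusted p = 0.103). For Hif1a DESeq2 gave an adjusted p of 0.0184 and limma-voom 0.121. HIF-1α is regulated chiefly at the level of its protein, which RNA sequencing does not measure. The prolyl hydroxylases that mark HIF-1α had lower means in the libraries labelled mutant, within the spread of the controls or just below it. Egln1, the main oxygen sensor, had 99.8 to 132 CPM against 109 and 117 CPM (log2 fold change -0.064). Egln3, which HIF itself induces, had 19.6 to 28.2 CPM against 20.4 and 19.4 CPM (log2 fold change -0.20).

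Of the 7 HIF target genes, Ndrg1 fell, and Ankrd37 and P4ha1 were below every control without passing. Of all tested genes, 0.899% were called lower and 10.4% were below every control. Ndrg1 encodes a cytoplasmic protein that hypoxia and stress induce in many cell types. It had 37.7, 36.6, 26.9, 37.9 and 36.8 CPM in controls 1 to 5 and 22.9 and 19.7 CPM in mutant 1 and 2. Control 3 stood below the other controls and still above both mutant libraries. The means were 35.2 ± 4.65 CPM (SD, n = 5) and 21.3 ± 2.27 CPM (SD, n = 2), a log2 fold change of -0.72 (SE 0.14, 95% interval -1.04 to -0.40, edgeR adjusted p = 0.0417). The call was near the threshold. Adjusted p was 0.0995 without control 1, 0.0976 without control 2, 0.0594 without control 4 and 0.0509 without control 5. It was 0.0621 without mutant 1 and 0.338 without mutant 2, with 0.0662 in limma-voom, 0.0646 when Xist level marked sex in the fit, and 0.000545 in DESeq2. The cushion mesenchyme and macrophage marker sums, given above, were also lower in both libraries labelled mutant, as were 5 of 9 atrial markers. The part of these cell types in the Ndrg1 difference was not tested. Ndrg1 lies at chr15:66929318-66969641, minus strand. Of its 50-base stretches, 12.3% occur in transcripts of other genes and 9.62% in Gm17035.

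Ankrd37, a small ankyrin-repeat gene and a direct HIF-1 target, had few counts, at 7.96, 7.17, 6.45, 6.29 and 6.51 CPM in the controls and 5.35 and 4.86 CPM in the libraries labelled mutant (log2 fold change -0.43, SE 0.16, adjusted p = 0.203). Both mutant libraries were the lowest of the 7. Ankrd37 overlaps Lrp2bp, and the library kit does not mark strand, so their reads cannot be told apart where they overlap. P4ha1 encodes the catalytic subunit of the hydroxylase that matures collagen, and it had 89.97, 80.7, 80.6, 73.4 and 75.3 CPM in the controls and 67.9 and 65.6 CPM in the libraries labelled mutant (log2 fold change -0.26, SE 0.094, adjusted p = 0.190). It too was lowest in the libraries labelled mutant, where the collagen-rich cushion and fibroblast markers were lower as well. Their part in the P4ha1 difference was not tested.

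The other 4 HIF targets overlapped between groups. Bnip3, a mitophagy receptor, had 335, 264, 268, 322 and 235 CPM in the controls and 247 and 223 CPM in the libraries labelled mutant (log2 fold change -0.28, SE 0.14, adjusted p = 0.327). Control 5 was lower than mutant 1, and 59.1% of the 50-base stretches of Bnip3 occur in other genes' transcripts. Adm, the vasodilator peptide adrenomedullin, had the lowest control mean CPM of the 37, though not in every library, at 4.56, 6.03, 7.68, 5.35 and 7.53 CPM in the controls and 5.50 and 4.07 CPM in mutant 1 and 2, with a log2 fold change of -0.38 and an SE of 0.24. The log2 fold change of Adm was -0.61 without mutant 1 and -0.17 without mutant 2. Vegfa, the main angiogenic growth factor, had 85.3 to 131 CPM against 102 and 119 CPM (log2 fold change 0.057). Kdm3a, a histone demethylase, had 87.00 to 96.2 CPM against 92.4 and 92.7 CPM (log2 fold change 0.0053, which turned negative under upper quartile scaling). Over the 7 targets, mutant 2 was the lowest library for 5 and control 1 the highest for 4.

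The promoters of 4 genes whose groups did not overlap are printed here, since HIF acts through short core letters, ACGTG or GCGTG, in the DNA near its targets. The windows run from 250 bases before to 50 bases after a start site listed for the gene (RefSeq, GRCm38.p6). They are on the gene's own strand from 5′ to 3′, and capitals mark either core on either strand. Of the genes printed, only Aldoc has its window at the outermost start of the gene. The outermost starts are 70653125 for Eno3, 46000414 for Ankrd37 and 59323197 for P4ha1, and the Eno3 and Ankrd37 windows lie wholly inside the gene. Aldoc and Eno3 stand for the enzymes and Ankrd37 and P4ha1 for the HIF targets. They were chosen after their values were seen. The positions are chr11:78322823-78323122 (plus strand) for Aldoc, chr11:70656926-70657225 (plus strand) for Eno3, chr8:45999801-46000100 (minus strand) for Ankrd37 and chr10:59323046-59323345 (plus strand) for P4ha1.
Aldoc: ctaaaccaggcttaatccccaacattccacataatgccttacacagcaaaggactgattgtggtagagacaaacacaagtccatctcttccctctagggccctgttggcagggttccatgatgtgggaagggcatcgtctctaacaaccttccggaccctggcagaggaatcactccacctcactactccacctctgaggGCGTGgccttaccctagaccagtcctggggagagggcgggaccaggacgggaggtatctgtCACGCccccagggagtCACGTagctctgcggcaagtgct
Eno3: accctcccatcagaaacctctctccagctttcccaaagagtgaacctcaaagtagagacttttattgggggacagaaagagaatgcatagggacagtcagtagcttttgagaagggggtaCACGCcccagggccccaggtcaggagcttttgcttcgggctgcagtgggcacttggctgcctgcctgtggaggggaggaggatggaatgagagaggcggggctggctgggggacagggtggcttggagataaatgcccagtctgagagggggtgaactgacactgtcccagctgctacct
Ankrd37: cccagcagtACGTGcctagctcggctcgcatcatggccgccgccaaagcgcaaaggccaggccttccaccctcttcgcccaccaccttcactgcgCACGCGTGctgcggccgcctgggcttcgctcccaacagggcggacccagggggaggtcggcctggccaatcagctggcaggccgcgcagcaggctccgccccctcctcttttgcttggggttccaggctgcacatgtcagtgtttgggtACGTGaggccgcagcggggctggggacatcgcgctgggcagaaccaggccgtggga
P4ha1: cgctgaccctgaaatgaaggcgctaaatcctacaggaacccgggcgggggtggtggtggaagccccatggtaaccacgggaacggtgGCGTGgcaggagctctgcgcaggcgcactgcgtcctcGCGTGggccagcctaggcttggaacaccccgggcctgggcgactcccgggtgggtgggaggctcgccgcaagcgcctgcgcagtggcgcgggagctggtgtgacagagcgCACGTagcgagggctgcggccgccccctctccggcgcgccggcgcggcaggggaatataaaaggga

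Windows were found for 34 of the 37 genes, Ndrg1, Slc2a3 and Slc2a4 being without one. Either core was in 27 of 34, against 62.1% of 10307 promoters of tested genes. By role, 10 of 16 enzyme genes and 5 of 6 HIF targets held one. The core ACGTG alone was in 18 of 34 (25.3% of tested-gene promoters), and GCGTG in 20 of 34 (50.7%), and a window can hold both. The T-box core AGGTGT was in 3 of 34, those of Slc2a1, Hk1 and Pdk3, against 10.7%. These are letters in a window, counted on both strands, and not measured binding.

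Ratios between genes of the same step do not depend on library scaling and compare isoform genes within each library. In bulk tissue a ratio can also differ with the mix of cell types. The cushion mesenchyme and macrophage marker sums were lower in both libraries labelled mutant, as were 5 of 9 atrial markers. The part of these cell types in the ratios was not tested. Of 13 ratios, 4 lay outside the control range in both libraries labelled mutant, where 20.2% of all tested genes did so by their level. Each of these 4 had an exact two-sided permutation p of 0.0476, the smallest that 5 against 2 libraries can give, and an adjusted p of 0.155 over the 13, so none passed. Aldoc, Slc16a1 and Pdk4 were outside the control range on their own, so their ratios largely repeat the values given above. The per-length ratio of Aldoc to Aldoa differed by 0.79 on the log2 scale. Slc2a4 to Slc2a1 was 0.161 to 0.175 in the controls and 0.212 and 0.227 in mutant 1 and 2, a log2 difference of 0.41. The control libraries differed little in this ratio, although neither gene alone was outside the control range in both mutant libraries. Slc16a3 to Slc16a1 was 1.02 to 1.31 in the controls and 1.78 and 1.40 in mutant 1 and 2 (log2 difference 0.41). Pdk4 to Pdk1 was 0.153 to 0.181 and 0.193 and 0.223 (log2 difference 0.29). The other 9 ratios, among them Hk2 to Hk1, Ldhb to Ldha and Eno3 to Eno1, overlapped between groups.

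**Figure D4:**
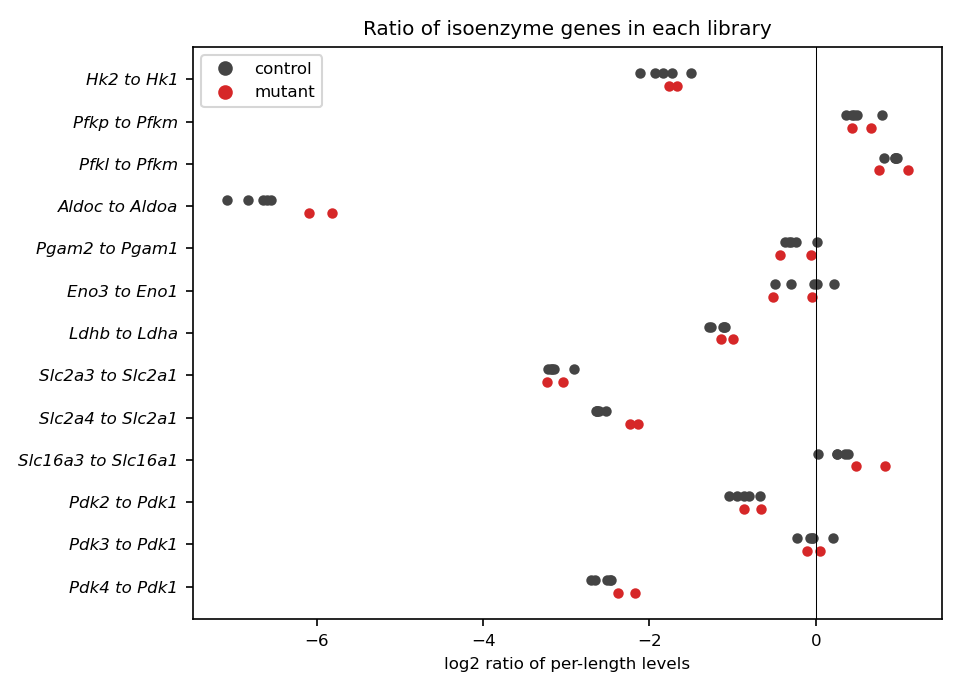
Points are libraries and show the log2 ratio of the per-length levels of 2 genes of the same step or family, controls above and libraries labelled mutant below in each row. The groups part for Aldoc to Aldoa, Slc2a4 to Slc2a1, Slc16a3 to Slc16a1 and Pdk4 to Pdk1, and overlap for the other 9.

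Of the other genes of both pathways, 88 were tested and 2 passed, where 1.36% of all tested genes were called. Pdp1, the phosphatase that reactivates pyruvate dehydrogenase, rose: control mean 19.9 ± 0.632 CPM (SD, n = 5), mutant mean 27.6 ± 0.696 CPM (SD, n = 2) (log2 fold change 0.47, SE 0.087, adjusted p = 0.0317). It was 1 of 26 other glycolysis genes tested, whose median log2 fold change was -0.043. Cox4i2, the hypoxia-induced subunit of cytochrome oxidase, fell: control mean 4.83 ± 0.947 CPM (SD, n = 5), mutant mean 2.11 ± 0.0443 CPM (SD, n = 2) (log2 fold change -1.19, SE 0.24, adjusted p = 0.0439). It was 1 of 47 other HIF targets tested, of which 33 had a negative value, 8 were below every control and 0 above, with a median of -0.076. Over all 14691 tested genes, 7552 had a negative value, 10.4% were below every control and 9.73% above. Adjusted p for Pdp1 rose above the threshold without control 1, 2 or 3 (0.0741, 0.0801 and 0.0582) and without mutant 1 or 2 (0.0684 and 0.239). The same 5 removals gave 0.0995, 0.0544, 0.0721, 0.0914 and 0.272 for Cox4i2. The Cox4i2 call was also lost in limma-voom (0.0822), with the Xist term (0.140) and with the haemoglobin term (0.0519), and the Pdp1 call with the Xist term (0.107). None of 17 other HIF regulators passed, though 4 had an unadjusted p under 0.05, 2 in each direction, beside 17.6% of all tested genes (median 0.063).

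Named among them by rule, the other HIF subunits had log2 fold changes of 0.33 for Epas1 (HIF-2α), 0.35 for Hif3a and 0.11 for the shared partner Arnt. The oxygen-dependent brakes had -0.023 for the prolyl hydroxylase Egln2, -0.045 for the ubiquitin ligase subunit Vhl and 0.11 for the asparaginyl hydroxylase Hif1an. The enzymes that set fructose 2,6-bisphosphate, an activator of phosphofructokinase, had 0.046 (Pfkfb1), -0.066 (Pfkfb2), -0.24 (Pfkfb3) and -0.016 (Pfkfb4), and their antagonist Tigar had 0.066. The neuronal enolase Eno2 had -0.31 and the red-cell mutase Bpgm -0.25. The mitochondrial pyruvate carrier genes had -0.11 (Mpc1) and -0.020 (Mpc2). None of these passed.

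**Figure D5:**
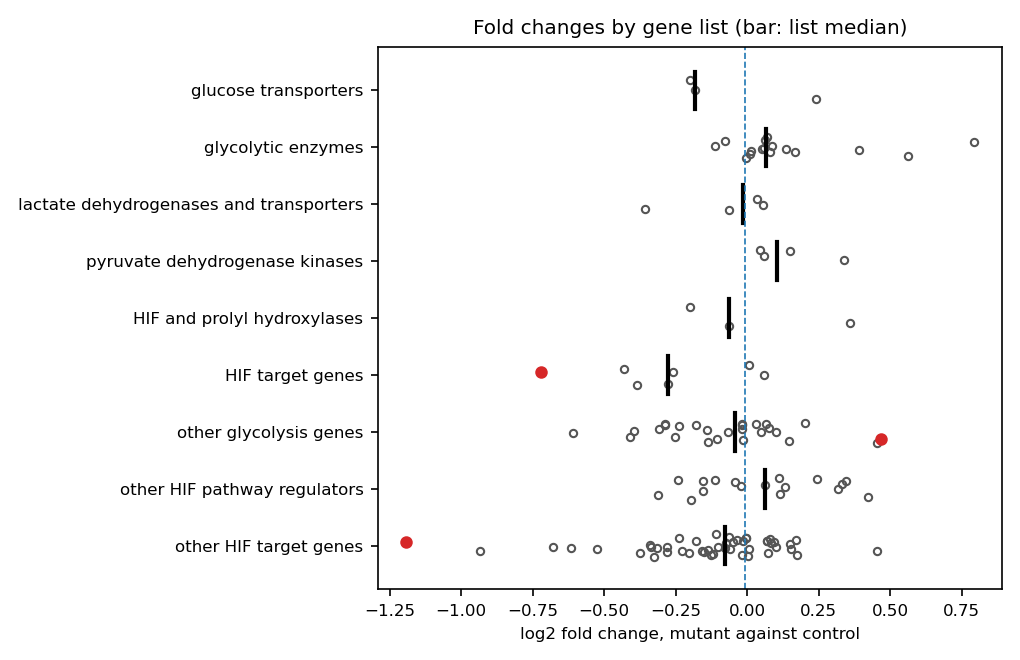
Each point is the log2 fold change of 1 tested gene, libraries labelled mutant against controls, by list; bars are list medians and the dashed line is the median of all tested genes. Filled red points passed the test: Ndrg1, Pdp1 and Cox4i2. The HIF target list has its median at -0.28 and the glycolytic enzymes at 0.064.

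The authors' deposited table lists 668 genes at a false discovery rate of at most 0.05, 273 higher and 395 lower, against 200 called here from the same counts. Of the 37 genes, the authors' deposited table lists Aldoc (log2 fold change 0.79, false discovery rate 0.000383), Eno1 (0.56, 0.0279) and Ndrg1 (-0.73, 0.000301). Of the other pathway genes the authors' deposited table lists Pdp1, Ep300, Cox4i2 and Trf. Over the 668 genes, fold changes in the authors' deposited table were apart from the edgeR values above by a median of 0.0054 on the log2 scale, with the same sign in 668. The authors' deposited table does not name its test.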

How the data were processed

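Left ventricle poly(A) RNA from 7 embryos, 5 control and 2 labelled mutant, was sequenced as single 50-base reads with a TruSeq v2 kit, per the labels' protocols. Groups and replicate numbers come from the sample titles. The deposited table holds raw counts per gene symbol, without normalization. The submitters' processing notes name the build mm10, TopHat2 2.1.1 and featureCounts, and also edgeR 3.16.5, limma 3.30.13 and R 3.3.2. The role of each tool, the annotation and the handling of multiply matching reads: not given in the sources used here. A second table deposited by the authors holds log2 fold changes with a p-value and an FDR for listed genes, per the file headers; base 2 was inferred because the edgeR values obtained here were nearly equal.

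Counts were analysed with edgeR 4.0.16 in R 4.3.3: filterByExpr (minimum count 10, total 15), TMM factors of 0.988 to 1.009, then glmQLFit with robust estimation and glmQLFTest with genotype as the only term, with Benjamini-Hochberg adjustment over 14691 genes. Common BCV (biological coefficient of variation) was 0.128 on 5 residual degrees of freedom. Totals of 20268208 to 24440806 counts per library set the precision, and chi-square per degree of freedom between libraries within a group was 10.5 to 33.6, above sampling noise, so none is a copy. RPKM used exon lengths of GENCODE M21, and ratios were tested by exact two-sided permutation over 21 arrangements. The alternatives used limma-voom (limma 3.58.1), DESeq2 1.42.0, other scalings, filters, covariates and left-out libraries. The fit was tested on simulated data with 200 changed genes, at an adjusted p of at most 0.05. It recovered 58% of changes of 1.5-fold, 91.5% of 2-fold and 99.5% of 4-fold. Of the genes called, 6.45%, 9.41% and 6.57% were false. Changed genes were drawn from those above a minimum expected count, in a single simulation for each fold. Genes were simulated independently with the fitted dispersions, so differences shared across a library were not included.

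The 37 genes and all lists were chosen with earlier results of these data known. The text names all 37, every called gene of the other pathway lists and 15 pathway genes fixed by name. Sequences are RefSeq promoter windows of GRCm38.p6, the first listed window per gene.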

Additional observations from a re-analysis of the deposited data

Results flagged for a closer look

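In the 5 controls, 2 of the 37 genes had a library set apart from the other 4 by a gap larger than Dixon's 95% critical value of 0.71, where chance alone flags about 1 group in 20. Slc2a3 was 43.6 CPM in control 1 and 33.8 to 35.8 CPM in the other controls. Ndrg1 was 26.9 CPM in control 3 and 36.6 to 37.9 CPM in the other controls. Without control 3 the log2 fold change of Ndrg1 was -0.80, with an edgeR adjusted p of 0.00826, and without control 1 that of Slc2a3 was -0.13, with an adjusted p of 0.615.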

How the results depend on the processing

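The single call among the 37 genes lay near the threshold. Ndrg1 kept a negative value in 19 of 19 alternatives and passed in 10 of them. With no filter on low counts, 1 of the 37 passed as higher, 120 of all genes were higher, and 2 other pathway genes were lower. Under limma-voom 0 of the 37, 65 of all genes and 0 other pathway genes were lower. DESeq2 called 5 of the 37 higher and 2 lower, 354 and 435 of all genes, and 2 and 3 other pathway genes. Without control 5 and mutant 2 together, 1 of the 37 was higher and 0 lower, 15 and 37 of all genes, 0 and 0 pathway genes, and the enzyme median was 0.15. With sex from Xist as a covariate 0 of the 37 was lower, 19 and 41 of all genes and 0 and 0 pathway genes were called, and the HIF target median was -0.22. With haemoglobin as a covariate 1 of the 37 was higher, and Cox4i2 no longer passed. At an adjusted p of 0.1, 4 of the 37 were higher, with 252 higher and 334 lower over all genes.

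Replicate numbers are shared between groups, and the labels do not say whether they mark pairs. The deviations of same-numbered libraries from their group means correlated at 0.15 and -0.012. Over all pairs the largest value was 0.45, for control 5 with mutant 2, which do not share a number. With 2 mutant libraries the deviations mirror each other (0.15 and -0.15 for control 1 with mutant 1 and 2, and -0.45 and 0.45 for control 5). The correlations therefore cannot show or exclude pairing. A replicate block takes the genotype difference from replicates 1 and 2 only, since controls 3 to 5 have no same-numbered mutant library. It leaves few residual degrees of freedom, so its larger counts of calls are not more secure. With a replicate block, 3 of the 37 were higher, 299 and 512 of all genes were called, 0 and 4 pathway genes were called (adjusted p 0.0657 for Pdp1), and the HIF target median was -0.34; Pdk1 turned to -0.0026 and Kdm3a to -0.025 under the block.

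Leaving out 1 library at a time gave 0 to 1 of the 37 higher and 0 to 1 lower, 3 to 151 and 9 to 182 of all genes, 0 to 2 and 0 to 1 pathway genes, an enzyme median of 0.027 to 0.15 and a HIF target median of -0.35 to -0.19. The lowest counts over all genes came without mutant 2, which leaves 1 mutant library assumed to vary like the controls. Log2 fold changes that turned sign in these fits ranged as follows: Aldoa -0.15 to 0.14, Vegfa -0.050 to 0.17, Gapdh -0.16 to 0.18, Kdm3a -0.0082 to 0.026, Pfkl -0.070 to 0.19, Pgam1 -0.15 to 0.29, Pkm -0.059 to 0.085, Ldhb -0.018 to 0.10, Slc16a3 -0.057 to 0.17, Pdk3 -0.031 to 0.15, Slc2a4 -0.0027 to 0.45, Tpi1 -0.25 to 0.025, Pgk1 -0.25 to 0.090, Ldha -0.19 to 0.064. Values that kept their sign but moved by over 1.5 times ranged as follows: Slc2a1 -0.37 to -0.0079, Slc2a3 -0.29 to -0.11, Hk1 0.047 to 0.13, Hk2 0.10 to 0.24, Gpi1 0.066 to 0.21, Pfkm 0.015 to 0.10, Pfkp 0.024 to 0.16, Aldoc 0.49 to 1.06, Pgam2 0.031 to 0.13, Eno1 0.35 to 0.76, Pdk1 0.019 to 0.084, Pdk2 0.063 to 0.24, Egln1 -0.11 to -0.013, Egln3 -0.24 to -0.11, Adm -0.61 to -0.17. Ratios that turned sign ranged as follows: Pgam2 to Pgam1 -0.19 to 0.19, Slc2a3 to Slc2a1 -0.10 to 0.087, Pdk3 to Pdk1 -0.068 to 0.086, Pfkl to Pfkm -0.17 to 0.18, Pfkp to Pfkm -0.068 to 0.15, Eno3 to Eno1 -0.40 to 0.070, Pdk2 to Pdk1 -0.0013 to 0.21.

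Other turns of sign were small. Aldoa was 0.0055 with DESeq2 size factors, 0.0051 with no filter and 0.0055 in DESeq2. With upper quartile factors Gapdh was -0.012, Pkm -0.019 and Kdm3a -0.023. Without control 5 and mutant 2, Slc2a4 was -0.017, Aldoa 0.14, Pgk1 0.051, Ldha 0.027, Vegfa -0.067 and Kdm3a -0.0082. Vegfa was -0.0098 with Xist, and with haemoglobin Gapdh was -0.0078, Pkm -0.0022 and Kdm3a -0.0088. In all, 15 of the 37 genes turned sign somewhere and 22 did not. The cause of these changes was not tested, and 2 libraries in a group limit the precision of each.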
